A study of Bos indicus with 55 samples.

Results

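The miR-200 family is a group of 5 microRNAs (miRNAs, short RNAs that pair with messenger RNAs and lower their output): bta-miR-200a, bta-miR-200b, bta-miR-200c, bta-miR-141 and bta-miR-429, where bta stands for cattle and is left out below. The members were taken by name from a table of bovine miRNAs sequenced from conceptus vesicles, where they are 5 of 1024 listed entries. All 5 passed the filter on low counts, as did 240 entries in all. Each is listed once, with no arm named, and none had the same counts as another entry in every library.

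The vesicles are extracellular vesicles, small membrane particles that cells release, and came from cattle conceptuses (the embryo with its membranes) of day 16 that were held in culture medium for 6 h. Nuclear transfer conceptuses, made by placing a donor cell's nucleus in an egg freed of its own, gave 12 libraries (7 male, 5 female). Conceptuses from in vitro fertilisation (IVF) gave 10 (3 male, 7 female), and conceptuses conceived in vivo after artificial insemination gave 6 (3 male, 3 female). Each library is from another conceptus, no other treatment is named in the labels, and the cells that gave the nuclei for transfer are not named either. The series' design text calls the conceptuses taurine cattle, while every label gives Bos indicus.

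The miR-200 family is known as a mark of epithelial cells. Its members repress ZEB1 and ZEB2, transcription factors that silence E-cadherin and other genes of cell contact, so cells rich in the family tend to keep an epithelial state. In human and mouse the members are made from a pair of transcripts, one with miR-200b, miR-200a and miR-429 and the other with miR-200c and miR-141. They also fall into a pair of seed groups, the seed being the stretch that pairs with targets: miR-200b, miR-200c and miR-429 share one seed, and miR-200a and miR-141 share another. On day 16 the outer layer of the cattle conceptus is the trophectoderm, an elongating epithelium that faces the uterine lining.

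Libraries held from 39.3 k to 603.6 k miRNA counts (k for kilo), with a median of 120.7 k. A pair of entries known to overlap other small RNAs, miR-2887 and miR-2904, took 5.17 to 59.4% of the counts in nuclear transfer libraries, 8.80 to 76.3% in IVF libraries and 4.11 to 37.1% in in vivo libraries. The deepest libraries were nuclear transfer female 3 and in vivo male 3, with 603.6 k and 400.9 k counts. They were also the lowest in the share of miR-2887 and miR-2904 and the highest in the share of the miR-200 family. Levels below are CPM, counts per 1000000 counts of a library, scaled by TMM, a method that sets libraries to a common level by a trimmed mean of their ratios. Intervals on counts cover counting error only. In vesicles, fewer particles from one cell type and less of a miRNA per particle cannot be told apart.

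The family was abundant in every conceptus type. It made up 158053 of 4025649 counts in all, or 3.93%, with 4.49% of the pooled counts in nuclear transfer, 2.36% in IVF and 5.31% in in vivo vesicles. Each pooled share was lower without the deepest library of its type, an alternative chosen after seeing the data. It was 2.40% in nuclear transfer without female 3, 1.75% in IVF without female 1 and 2.58% in in vivo vesicles without male 3. Single libraries ran from 0.403% (95% exact Clopper-Pearson interval 0.368 to 0.440%) in IVF female 4 to 9.11% (9.04 to 9.18%) in nuclear transfer female 3.

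Members fell into an abundant trio and a scarce pair. Of the family's counts, miR-200b held 38.9%, miR-200c 36.6% and miR-200a 22.7%, against 1.19% for miR-429 and 0.587% for miR-141. By mean CPM, miR-200b, miR-200c and miR-200a ranked 15, 16 and 19 among the 1024 entries, and miR-429 and miR-141 ranked 112 and 142. The split crosses both groupings, since each transcript and each seed group known from human and mouse holds abundant and scarce members. Mature miRNAs are of like length, but how well each is captured in a library was not measured here.

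Within the trio, neighbours in the order overlapped. MiR-200b exceeded miR-200c in 19 of 28 libraries, by 0.30 ± 0.46 on the log2 CPM scale (SD, n = 28). MiR-200c exceeded miR-200a in 16 of 28, by 0.15 ± 0.59. Both differences were smaller than their own spread over libraries, which describes single libraries and not the error of the mean difference. Between the ends of the trio, miR-200b exceeded miR-200a in 25 of 28 libraries, by 0.46 ± 0.38.

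The step from the trio to the pair was clear in every library. MiR-200a stood above miR-429 in 28 of 28 libraries, by 4.34 ± 0.73 on the log2 scale, or about 20.2-fold at the mean. MiR-429 exceeded miR-141 in 24 of 28, by 1.25 ± 1.43, a mean smaller than its SD over libraries. MiR-200c exceeded miR-141, its partner on one transcript, in 28 of 28 libraries by 5.74 ± 1.38. Depth limits the pair: miR-141 rests on 927 counts in all and on fewer than 10 in 10 libraries. It had 0 counts in nuclear transfer male 3, which allows up to 42.2 CPM there at a floor of 3 counts. With a pseudocount of 1 CPM, that library gave the widest differences from miR-141, 5.43 for miR-429 and 10.8 for miR-200c. These values widen both SDs.

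**Figure D1:**
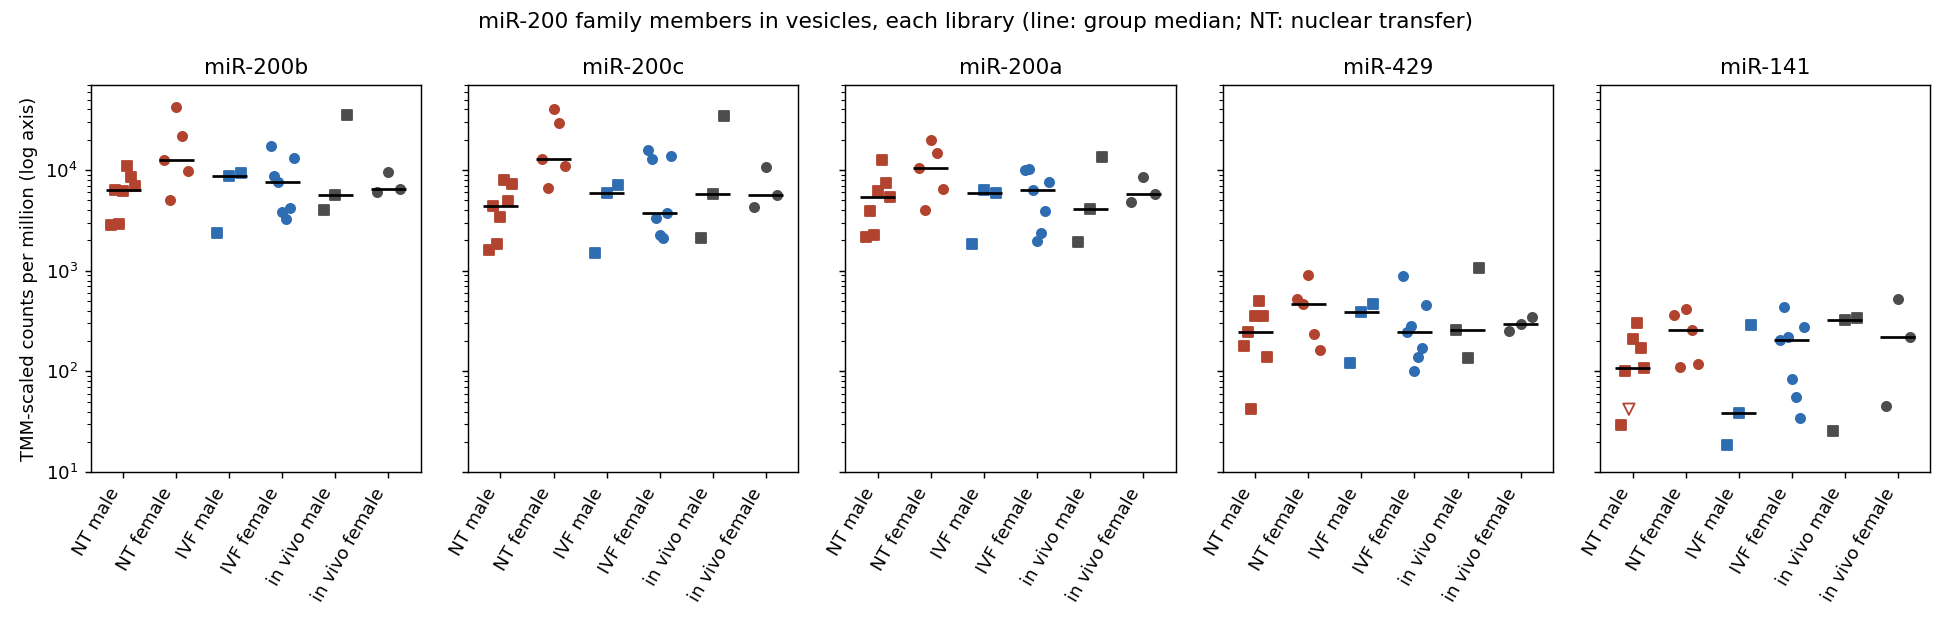
TMM-scaled CPM on a log axis (vertical) of each member in each of the 28 libraries, by conceptus type and sex (horizontal); lines are group medians, and the open triangle marks the floor of 3 counts for the library with 0 counts of miR-141. MiR-200b, miR-200c and miR-200a lie above 1000 CPM in 28 of 28 libraries, and miR-429 and miR-141 lie below it with 1 exception, miR-429 in in vivo male 3 at 1059.9 CPM.

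The first comparison asks whether nuclear transfer changed the vesicle miRNAs relative to conception in vivo. None of the members passed the test: 0 of 5 were called by edgeR at an adjusted p under 0.05, and 0 had an unadjusted p under 0.05. The edgeR background was 0.417% of all miRNAs tested (1 of 240). DESeq2 and limma voom also called 0 of 5, each against a background of 0%. MiR-200b ran from 2864 CPM through a median of 7803 to 42095 in nuclear transfer vesicles, and from 4013 through 6299.6 to 35053 in in vivo vesicles. The ranges of the conceptus types lay over each other, with a long upper tail in both. MiR-200c ran from 1604 through 6964 to 39952 CPM in nuclear transfer vesicles and from 2103 through 5733 to 34363 in in vivo vesicles. MiR-200a, the abundant member of the other seed group, ran from 2165 through 6343 to 19752 CPM in nuclear transfer vesicles and from 1923 through 5304 to 13403 in in vivo vesicles.

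Fitted log2 folds of nuclear transfer over in vivo lay between -0.42 and 0.31, with a median of -0.06 over the members and 0.15 over all miRNAs tested. MiR-200b averaged 11367 ± 10945 CPM (SD, n = 12) in nuclear transfer and 11130 ± 11854 (n = 6) in in vivo vesicles, a log2 fold of 0.05 (SE 0.49, adjusted p = 0.980 by edgeR). Its 95% interval ran from -0.94 to 1.04, which spans levels from 0.520 to 2.06 times those of in vivo vesicles. MiR-141 averaged 183 ± 130 CPM in nuclear transfer and 247 ± 190 in in vivo vesicles (log2 fold -0.42, SE 0.68, adjusted p = 0.756 by edgeR), and miR-429 averaged 343 ± 233 CPM in nuclear transfer and 391 ± 335 in in vivo vesicles. With the share of miR-2887 and miR-2904 as a covariate, the negative folds became 0.29 for miR-141, 0.86 for miR-200c and 0.40 for miR-429, with no call. Without in vivo male 3 the fold of miR-200c became 0.72 and that of miR-429 0.44.

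For IVF against in vivo conceptuses the fitted folds of the members were negative, and none passed. Of the 5, 0 were called by edgeR, against a background of 0% of the miRNAs tested (0 of 240, with 39 at an unadjusted p under 0.05). DESeq2 and limma voom also called 0 of 5, against backgrounds of 5.42% (13 of 240) and 9.17% (22 of 240). MiR-200c ran from 1484 through a median of 4833 to 15867 CPM in IVF vesicles, and its in vivo values are given above. Its means were 6859 ± 5400 CPM (SD, n = 10) in IVF and 10495 ± 12038 (n = 6) in in vivo vesicles. The log2 fold was -0.69 (SE 0.59, 95% interval -1.90 to 0.51, adjusted p = 0.568 by edgeR), and 5 of 10 IVF libraries lay below the in vivo median. The in vivo mean rests on in vivo male 3 at 34363 CPM, the next in vivo library being at 10787.

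All 5 members had a negative log2 fold in IVF against in vivo, with a median of -0.48 over the members and 0.01 over all miRNAs tested. Without in vivo male 3 the fold of miR-200c became 0.20, that of miR-200b 0.31, that of miR-200a 0.24 and that of miR-429 0.42. Leaving out that library alone thus turned the direction of 4 of the 5 members, and the same 4 turned positive with the share of miR-2887 and miR-2904 as a covariate.

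Between the conceptus types made by assisted means, the folds of nuclear transfer over IVF were positive for all 5 members, and 0 of 5 were called by edgeR, DESeq2 or limma voom. The background here was 1.25% of the miRNAs tested by edgeR (3 of 240) and 0% by DESeq2 and by limma voom. MiR-200b averaged 11367 ± 10945 CPM in nuclear transfer (n = 12) and 7845 ± 4733 in IVF vesicles (n = 10), a log2 fold of 0.53 (SE 0.44, adjusted p = 0.684 by edgeR). MiR-200a averaged 7966 ± 5422 CPM in nuclear transfer and 5679 ± 3130 in IVF vesicles (log2 fold 0.58, SE 0.42, 95% interval -0.29 to 1.44, adjusted p = 0.649 by edgeR). For miR-200b, 6 of 12 nuclear transfer libraries lay above the IVF median, and for miR-200a 7 of 12 did. The members' median was 0.53 and that of all miRNAs 0.06. The comparisons between types share libraries, so their folds are not independent of each other. The sign of miR-429, the smallest difference at 0.09, turned with DESeq2 size factors (-0.03).

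**Figure D2:**
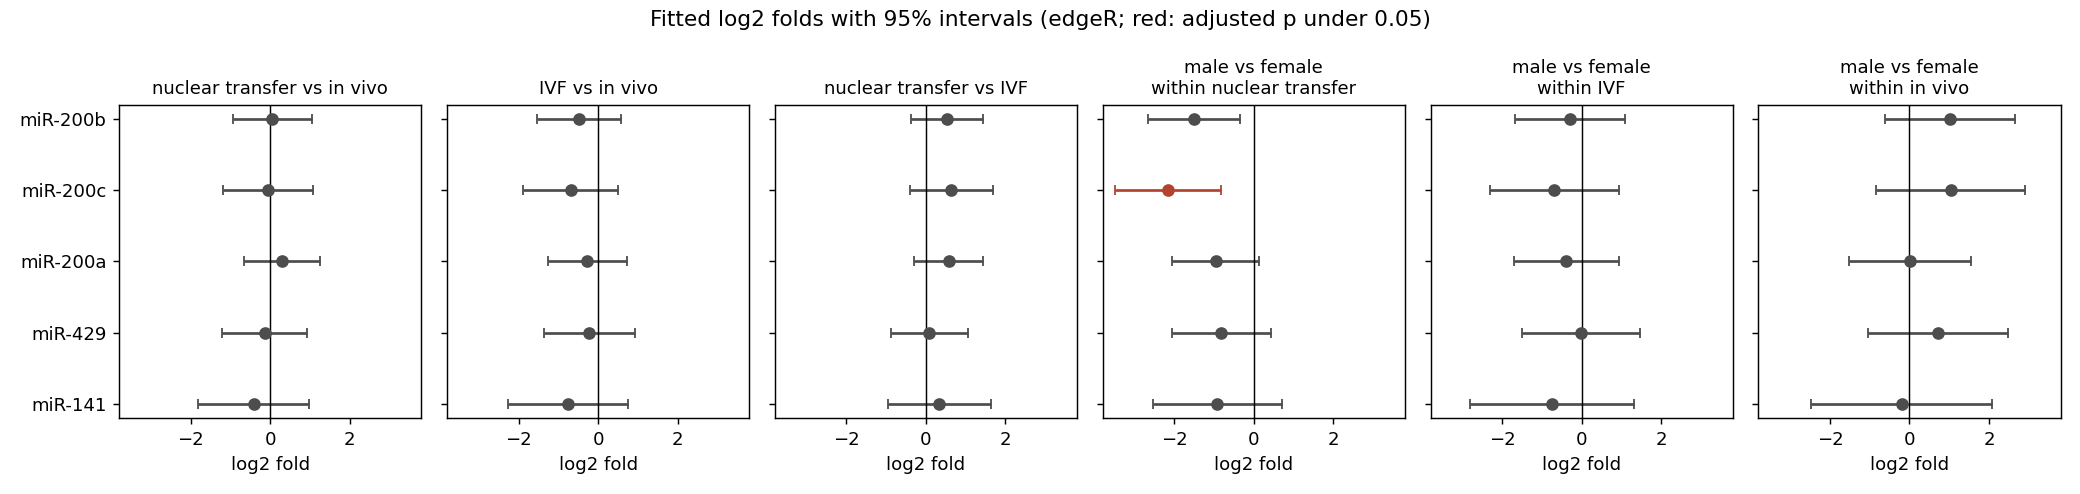
Fitted log2 folds (horizontal) of the 5 members (vertical) in 6 comparisons, with points for estimates and bars for 95% intervals by edgeR; red marks an adjusted p under 0.05. Every interval crosses 0 in the comparisons of conceptus types and in the sex comparisons within IVF and in vivo, and the intervals of miR-200c and miR-200b lie below 0 for males against females within nuclear transfer.

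The titles also give the sex of each conceptus. The comparison of the sexes within nuclear transfer was chosen after sex differences had been seen in the nuclear transfer vesicles of these data. Its p-values are therefore not those of a test fixed in advance. Within nuclear transfer, males had less miR-200c than females, and it was the one member called. MiR-200c ran from 1604 through a median of 4427 to 7897 CPM in the 7 nuclear transfer males, and stood at 12783, 6649, 39952, 29386 and 10918 CPM in the 5 nuclear transfer females. All 7 males lay below the female median, and the groups overlapped only between 6649 and 7897 CPM. The means were 4485 ± 2459 CPM (SD, n = 7) in males and 19938 ± 14133 (n = 5) in females. The log2 fold was -2.15 (SE 0.65, 95% interval -3.48 to -0.82, adjusted p = 0.0381 by edgeR), a level 0.225 times that of females.

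The background of that comparison was 8.33% of the miRNAs tested (20 of 240), of which 7 (2.92%) were higher and 13 (5.42%) lower in males. Among the members 0 of 5 were higher and 1 of 5 was lower. The other 4 members had negative folds that did not pass. MiR-200b, which shares the seed of miR-200c, ran from 2864 through 6326 to 11075 CPM in males and stood at 12608, 5092, 42095, 21756 and 9843 CPM in females (log2 fold -1.51, SE 0.56, adjusted p = 0.0741 by edgeR). All 7 males lay below the female median there too, with a wider overlap. MiR-141, the partner of miR-200c on one transcript, averaged 132 ± 106 CPM in males and 253 ± 139 in females (log2 fold -0.92, SE 0.79, adjusted p = 0.420 by edgeR). MiR-200a had a fold of -0.96 (SE 0.53, adjusted p = 0.198 by edgeR) and miR-429 one of -0.82 (SE 0.61, adjusted p = 0.345 by edgeR). The members' median was -0.96 and that of all miRNAs tested -0.03.

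The call of miR-200c depends on how the libraries are scaled and on single libraries. The miR-2887 and miR-2904 share was 30.3 to 59.4% in nuclear transfer males and 5.17 to 44.5% in females, and neither entry passed by itself (adjusted p = 0.307 and 0.177 by edgeR). With that share as a covariate the log2 fold of miR-200c was -0.87 (adjusted p = 0.372 by edgeR). Without nuclear transfer female 3 it was -1.57 (adjusted p = 0.224 by edgeR), and without both of the deepest libraries -1.51 (adjusted p = 0.200 by edgeR). With 1 library left out the call was lost in 20 of 28 fits. DESeq2 kept it (log2 fold -1.80, adjusted p = 0.0197), as did limma voom (-1.97, adjusted p = 0.0127). Their backgrounds were wide, with 24.6% of the miRNAs called by DESeq2 (59 of 240) and 19.2% by limma voom (46 of 240), beside 1 of 5 members in each. With DESeq2 size factors in edgeR the call of miR-200c was lost (-1.80, adjusted p = 0.0597), and 3 miRNAs were called in all, 2 higher and 1 lower in males. All 5 members kept a negative fold in the 28 fits with 1 library left out and in the 10 other fits of this comparison, and with the covariate the folds of the other 4 were smaller, at -0.36 for miR-200b, -0.13 for miR-200a, -0.16 for miR-429 and -0.038 for miR-141. The male and female nuclei come from different donor animals, which the labels do not name, so sex and donor cell cannot be told apart. The labels also do not say how many donors gave the 7 males and the 5 females, so libraries of a sex may share a donor.

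In the other conceptus types 0 of 5 members were called by sex with edgeR, DESeq2 or limma voom. The backgrounds were 0% within IVF, where 3 of 240 miRNAs had an unadjusted p under 0.05 and no member did, and 0% within in vivo, where 7 did and again no member. Within IVF, miR-200c stood at 1484, 5879 and 7089 CPM in the 3 males and ran from 2125 through 3787 to 15867 in the 7 females (log2 fold -0.68, SE 0.79, adjusted p = 1.00 by edgeR). Within in vivo, it stood at 2103, 5819 and 34363 CPM in males and at 4249.9, 10787 and 5647 in females (log2 fold 1.03, SE 0.91, adjusted p = 0.995 by edgeR). One male library lay above all others of that type, and the remaining values overlapped. In vivo, 4 of 5 members had a positive fold for males over females, against 0 of 5 in either of the other types. Without in vivo male 3 the in vivo fold of miR-200c was -0.77 and that of miR-200b -0.64.

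Whether the sex difference depended on conceptus type was tested as an interaction, and 0 of 5 members were called by edgeR against a background of 0% (0 of 240, with 35 at an unadjusted p under 0.05). MiR-200c had an unadjusted p of 0.0284 and miR-200b one of 0.0463, both with an adjusted p of 0.323 by edgeR, so the sex difference within nuclear transfer was not shown to differ from that in the other types. Averaged over the types, 0 of 5 members were called between males and females by edgeR (background 0%, with 9 of 240 miRNAs and no member at an unadjusted p under 0.05). MiR-200c had a log2 fold of -0.60 (SE 0.45, adjusted p = 0.743 by edgeR) in that average, with 6779.6 ± 8591 CPM in 13 males and 11634 ± 10585 in 15 females.

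Ratios of members within a library do not depend on how libraries are scaled, and were looked at after the levels were seen, so they are given as a description. The count of miR-200c per count of miR-200b averaged 0.680 ± 0.172 (SD, n = 7) in nuclear transfer males and 1.15 ± 0.18 (n = 5) in nuclear transfer females. It stood at 1.01, 1.31, 0.949, 1.35 and 1.11 in those females and between 0.545 and 1.04 in the males. MiR-200c was the more abundant of these miRNAs in 1 of 7 nuclear transfer males and 4 of 5 nuclear transfer females. In IVF the ratio was 0.686 ± 0.070 in males and 0.861 ± 0.342 in females, and in in vivo vesicles 0.845 ± 0.279 in males and 0.901 ± 0.221 in females. MiR-200c exceeded miR-200b in 0 of 3 IVF males, 2 of 7 IVF females, 1 of 3 in vivo males and 1 of 3 in vivo females.

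Seen by transcript, miR-200b, miR-200a and miR-429 together made up 73.1 ± 5.2% of the family's counts in nuclear transfer males and 59.8 ± 3.2% in nuclear transfer females, where miR-200c and miR-141 make up the rest. These shares overlapped in 1 library of each sex: the lowest male was at 63.0% and the highest female at 64.3%. Seen by seed, miR-200b, miR-200c and miR-429 made up 66.7 ± 5.2% of the family in those males and 75.8 ± 3.7% in those females. In in vivo vesicles the seed share ran the other way, at 77.5 ± 5.8% in males and 68.4 ± 0.9% in females (n = 3 each), and in IVF it was 70.5 ± 2.7% in males and 70.9 ± 5.6% in females. The transcript share was 65.0 ± 8.3% in in vivo males and 67.5 ± 5.1% in in vivo females, and 71.5 ± 3.3% in IVF males and 67.9 ± 7.5% in IVF females. Between conceptus types the seed split differed by less than its spread, at 70.5 ± 6.4% in nuclear transfer, 70.7 ± 4.8% in IVF and 73.0 ± 6.2% in in vivo vesicles. The ratio of miR-200a to miR-200b, which share a transcript and not a seed, was 0.780 ± 0.175 in nuclear transfer, 0.750 ± 0.196 in IVF and 0.697 ± 0.219 in in vivo vesicles.

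**Figure D3:**
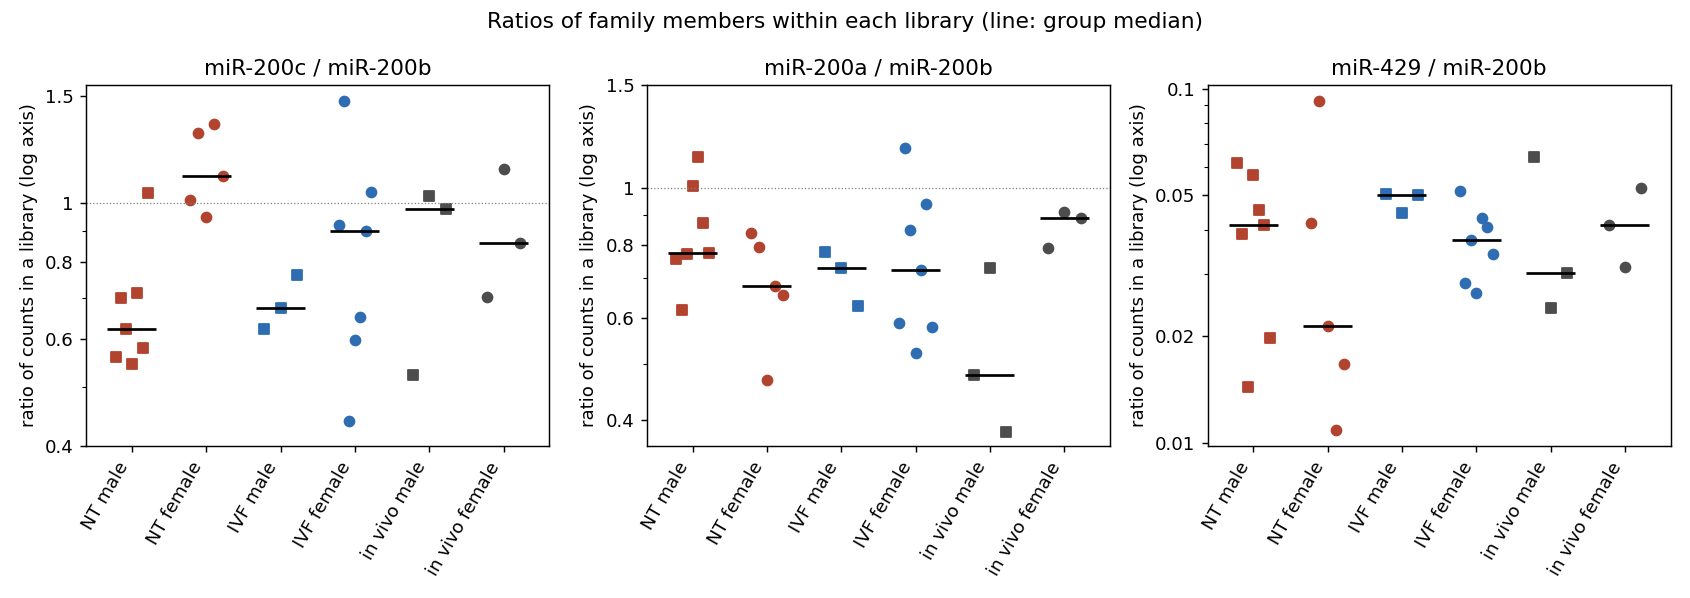
Ratio of counts of miR-200c, miR-200a and miR-429 to those of miR-200b within each library (vertical, log axis) by conceptus type and sex (horizontal); lines are group medians and the dotted line marks a ratio of 1. For miR-200c the nuclear transfer males lie between 0.545 and 1.04 and the females between 0.949 and 1.35.

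The members moved together across the 28 libraries. Each was correlated with the sum of the other 4 on the log2 CPM scale, as 5 of 7 relations tested by permutation. For miR-200b, Pearson's r was 0.967 and Spearman's rho 0.964 (permutation p = 1e-05 each, the smallest that 100000 permutations can give, and 1.75e-05 after adjustment over the 7). For miR-200c they were 0.952 and 0.910, and for miR-200a 0.935 and 0.926, with the same p. The scarce members followed less closely, with r = 0.745 and rho = 0.693 for miR-429 (adjusted permutation p = 1.75e-05 and 9.33e-05) and r = 0.717 and rho = 0.803 for miR-141 (adjusted permutation p = 2.8e-05 and 1.75e-05). Without the 2 libraries farthest from the median, r was 0.963, 0.929, 0.931, 0.648 and 0.724 for miR-200b, miR-200c, miR-200a, miR-429 and miR-141. Within conceptus types r was at least 0.923 for the trio and between 0.650 and 0.898 for the pair. For miR-141, nuclear transfer male 3 had 0 counts and entered at a pseudocount of 1 CPM, below its floor of 42.2 CPM. The part of that library in r was not tested. All members of a library share its depth and scaling, and the part of this in the correlations was not tested.

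The family's share also moved with the entries miR-2887 and miR-2904. As a percentage of the counts outside those entries, the family made up 4.36 ± 2.53% in nuclear transfer, 3.65 ± 2.13% in IVF and 4.04 ± 2.23% in in vivo libraries. Libraries with more miR-2887 and miR-2904 held less of it even so: r was -0.713 and rho -0.712 (permutation p = 3e-05 and 5e-05, adjusted 3.5e-05 and 7e-05). Within nuclear transfer, IVF and in vivo libraries r was -0.784, -0.771 and -0.964, and without the 2 farthest libraries it was -0.665. The ratio of miR-200c to miR-200b was lower in the same libraries, with r = -0.630 and rho = -0.660 (permutation p = 0.00043 and 0.00019, adjusted 0.00043 and 0.00019), and r = -0.708, -0.633 and -0.719 within nuclear transfer, IVF and in vivo libraries. Without the 2 farthest libraries r was -0.623. The share of these entries averaged 46.6 ± 10.2% in nuclear transfer males and 24.6 ± 16.2% in nuclear transfer females. The fit with that share as a covariate, given above, put the log2 fold of miR-200c between these sexes at -0.87 (adjusted p = 0.372 by edgeR). Beyond that fit, the part of the share in the sex difference was not tested.

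**Figure D4:**
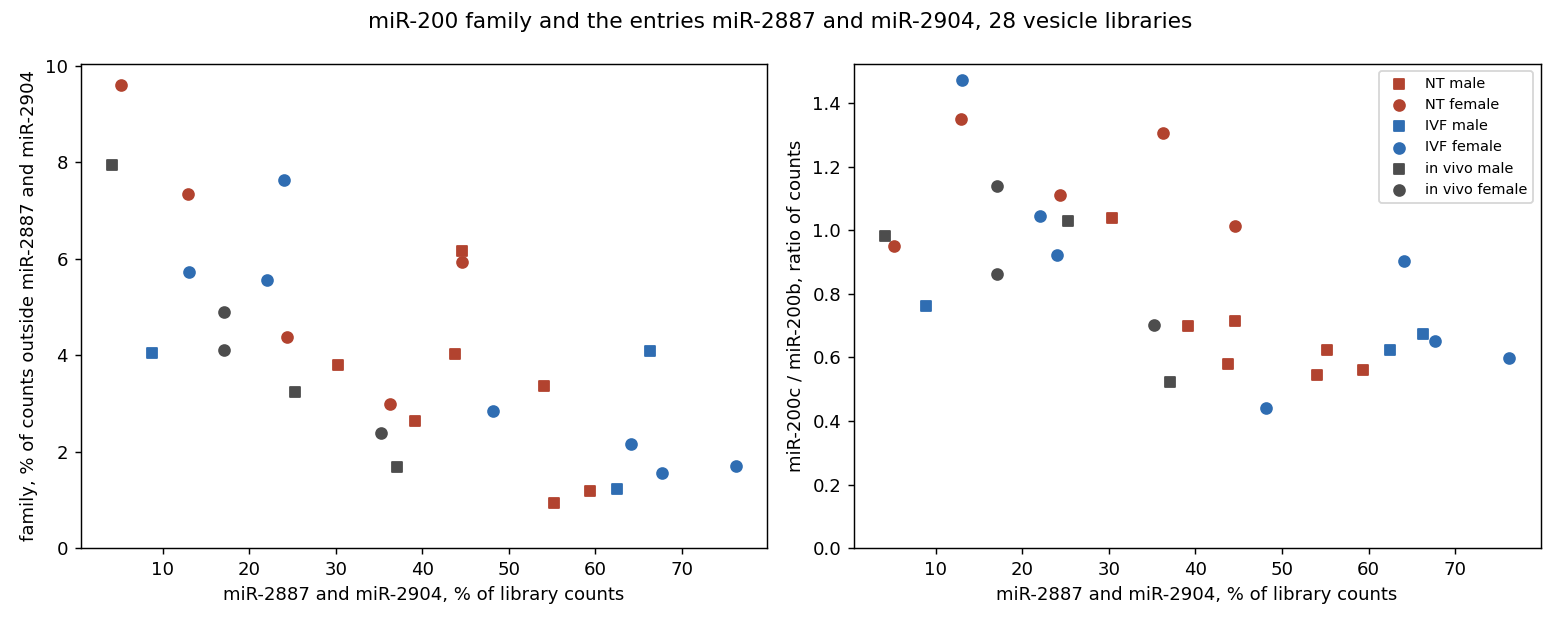
The family's percentage of counts outside miR-2887 and miR-2904 (left, vertical) and the ratio of miR-200c to miR-200b counts (right, vertical), against the percentage of library counts in miR-2887 and miR-2904 (horizontal), 1 point for each of 28 libraries. Both fall towards the right, with r = -0.713 and -0.630.

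Some other miRNAs had a profile close to that of the family. Among 235 other miRNAs that passed the filter, the 5 with the highest Spearman correlation with the summed family over 28 libraries were miR-95 (0.935), miR-30a-5p (0.912), miR-30f (0.887), miR-499 (0.868) and let-7d (0.865). MiR-30a-5p and miR-30f belong to the miR-30 family, and miR-499 is known from heart muscle, where a myosin gene hosts it. All 5 values were above the rho of miR-429 (0.693) and of miR-141 (0.803) with the other members, so a close profile was not particular to the family. These values are descriptions over libraries that share depth and scaling. Of the 5 miRNAs, miR-30f was among the 13 miRNAs lower in nuclear transfer males (log2 fold -2.64, adjusted p = 0.0453 by edgeR).

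None of the other miRNAs of epithelia passed. Of 11 names fixed for that list, 9 entries were listed and 7 tested, and 0 of 7 were called in any comparison by edgeR. MiR-375, known from endocrine and gut epithelium, averaged 635 ± 457 CPM in nuclear transfer, 488 ± 609 in IVF and 930 ± 580 in in vivo vesicles. Within nuclear transfer it averaged 350.0 ± 250.2 CPM in males and 1034 ± 372 in females (log2 fold -1.56, SE 0.69, adjusted p = 0.123 by edgeR). MiR-183, of a cluster active in sensory epithelia, averaged 575 ± 273, 410.5 ± 181 and 609 ± 295 CPM in nuclear transfer, IVF and in vivo vesicles. MiR-205, known from stratified epithelium, had 41 counts in 11 libraries and was not tested. The list's median log2 fold was 0.28 for nuclear transfer against in vivo, 0.08 for IVF against in vivo and -0.13 for males against females within nuclear transfer, against 0.15, 0.01 and -0.03 over all miRNAs.

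Lists for other cell types were read beside the family, and 0 of their tested entries were called in any comparison by edgeR. They held 9 tested entries for stroma and smooth muscle, 7 for blood, 2 for endothelium, 4 for striated muscle, 1 for liver and 5 for the early embryo. None of the listed entries was at 0 in every library. The summed stromal list ran from 2195 through a median of 4991 to 13446 CPM in nuclear transfer, from 2713 through 5446 to 13876 in IVF and from 2729.7 through 8632 to 13173 in in vivo libraries. The summed blood list ran from 621 through 3882 to 8912 CPM in nuclear transfer, from 618 through 2343 to 9667 in IVF and from 656 through 2127 to 4834 in in vivo libraries. The most abundant entries of these lists follow by conceptus type, and those of the early embryo list are given further below. MiR-143, of smooth muscle and fibroblasts, averaged 2852 ± 2066 CPM in nuclear transfer, 2591 ± 1574 in IVF and 3899.6 ± 2130.0 in in vivo vesicles. MiR-199a-3p, also of stroma, averaged 1174 ± 1571 CPM in nuclear transfer, 983 ± 391 in IVF and 1477 ± 1299 in in vivo vesicles. Of the 9 tested stromal entries, 3 had positive folds in nuclear transfer against in vivo and 3 in IVF against in vivo. Of the 7 tested blood entries, 6 were positive in each. MiR-155 went the other way in both, with 756 ± 430 CPM in nuclear transfer, 712 ± 356 in IVF and 1308 ± 931 in in vivo vesicles. MiR-150, of lymphocytes, averaged 1375 ± 1361 CPM in nuclear transfer, 979 ± 1310.0 in IVF and 392 ± 664 in in vivo vesicles.

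MiR-451, of red blood cells, averaged 940.4 ± 1053 CPM in nuclear transfer, 1246 ± 1388 in IVF and 431 ± 352 in in vivo vesicles. MiR-126-3p, of endothelium, averaged 4793 ± 3170.4 CPM in nuclear transfer, 6199 ± 3623 in IVF and 6303 ± 4241 in in vivo vesicles. The scarce miR-126-5p, at 120 counts in all, averaged 45.8 ± 51.2, 31.1 ± 29.5 and 20.2 ± 18.9 CPM in the same order. In nuclear transfer against in vivo the log2 fold was -0.37 for miR-126-3p and 1.10 for miR-126-5p. MiR-122, of liver cells, averaged 4180.0 ± 6929 CPM in nuclear transfer, 2549.9 ± 2805 in IVF and 2305 ± 2231 in in vivo vesicles. None of these differences passed, and each SD is large beside its mean. MiR-1, of striated muscle, averaged 2575 ± 4884 CPM in nuclear transfer, 338 ± 416 in IVF and 848 ± 1183 in in vivo vesicles. MiR-499, of the same list, averaged 773 ± 639 CPM in nuclear transfer, 676 ± 518 in IVF and 770.3 ± 353 in in vivo vesicles.

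Between the sexes of nuclear transfer, where miR-200c differed, the early embryo list ran from 423 through 2473 to 7784 CPM in males and from 140.6 through 197 to 1088 in females. Its 5 tested entries all had positive folds and none passed (miR-302a log2 fold 3.15, SE 1.26, adjusted p = 0.0973 by edgeR; miR-302b 2.77, SE 1.09, adjusted p = 0.0933). MiR-302a and miR-302b are known from pluripotent cells. Between conceptus types, all 5 entries had positive folds in IVF against in vivo, with a median log2 fold of 2.52 against 0.01 over all miRNAs. MiR-302b averaged 779 ± 968 CPM in nuclear transfer, 1744 ± 1770.2 in IVF and 318 ± 273 in in vivo vesicles. MiR-302a averaged 563 ± 744, 1300.1 ± 1431 and 174 ± 166 CPM in the same order. Their log2 folds in IVF against in vivo were 2.34 and 2.82 (adjusted p = 0.229 and 0.226 by edgeR), so neither passed.

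The striated muscle list ran from 148 through 923 to 17284 CPM in nuclear transfer males and from 1730.2 through 1832 to 3053 in nuclear transfer females. Of its 4 tested entries 3 had positive folds, and the median over the 4 was 1.71. MiR-499 went the other way, with 431 ± 209 CPM in males and 1253 ± 750 in females. That is -1.54 on the log2 scale, and it did not pass either (adjusted p = 0.0933 by edgeR, the lowest of the 4). MiR-1 had a log2 fold of 2.56 (SE 1.39, adjusted p = 0.196 by edgeR), and miR-133a had a log2 fold of 2.74 (SE 1.43, adjusted p = 0.177 by edgeR). Liver miR-122 averaged 6016 ± 8795 CPM in males and 1609.7 ± 1351 in females (log2 fold 1.90, SE 0.98, adjusted p = 0.175 by edgeR). The SD of miR-122 in males was larger than its mean, and the ranges of the muscle and liver lists overlapped between the sexes.

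For the remaining lists the sexes of nuclear transfer overlapped. The stromal list ran from 2195 through 5025 to 9616 CPM in males and from 2788 through 4958 to 13446 in females. The blood list ran from 1545 through 4161 to 5256 CPM in males and from 621 through 1822 to 8912 in females. The endothelial list ran from 2266 through 3639.7 to 8903 CPM in males and from 2593 through 3928 to 13199 in females. The part of any of these cell types in the miR-200c difference was not tested.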

How the data were processed

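Small RNA of vesicles from 28 conceptuses was sequenced. The authors deposited raw whole-number counts for each miRNA, without normalization. Per the submitters' processing notes, cutadapt, STAR, featureCounts, Bowtie and DESeq2 were among the tools and ARS-UCD1.2 was the genome build; their versions and settings were not given in the sources used here. Endometrium counts were not analysed. Groups came from the titles.

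Tests used edgeR 4.0.16 (R 4.3.3): TMM scaling, filterByExpr by group (minimum count 10, minimum total 15), 1 fit of 6 group means over 28 libraries, the quasi-likelihood F test, two-sided, Benjamini-Hochberg adjustment over 240 miRNAs and a threshold of 0.05. Type contrasts average the differences found in males and in females. CPM values are TMM-scaled. For miRNAs compared with the summed family and for the replicate numbers, log2 CPM used a prior count of 2. Differences within a library used a pseudocount of 1. The permutation correlations of members used a pseudocount of 1 for the member and none for the sum of the others. The script was tested on simulated data. Alternatives used DESeq2 1.42.0, limma 3.58.1 (voom with quality weights), other scaling and filters (10 CPM in 3 libraries), miR-2887 and miR-2904 left out or as a covariate, a replicate block, fits of fewer groups and single libraries left out; the fit without the 2 deepest libraries and pooled shares without the deepest library of a type were added after seeing the data. Members, lists and the comparison of the sexes within nuclear transfer were chosen with earlier results of these data known. Named miRNAs are the members, the 5 most like their sum, miR-2887 and miR-2904, and, as none of the lists had a call, the 2 most abundant of each list; others were chosen after their values were seen. Labels do not say that replicates share a batch. Sequences and coordinates are not used here.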

Additional observations from a re-analysis of the deposited data

Results flagged for a closer look

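Among IVF and among in vivo libraries, 5 values of 4 measures stood far from the others by Dixon's test. For normally distributed values that test flags about 1 group in 20 by chance, and the CPM values had a long upper tail. The nuclear transfer group was larger than the test as used here covers, so its values were not tested. No nuclear transfer value is among the 5 for that reason, and no conclusion is drawn from that. In miR-200b, nuclear transfer female 3 stood at 42095 CPM and the next library of that type at 21756. In vivo male 3 stood above the 5 other in vivo libraries in miR-200b (35053 CPM), miR-200c (34363 CPM), miR-429 (1059.9 CPM) and the summed family (84220.6 CPM). These come from 1 library and are not independent of each other. IVF female 1 stood above the 9 other IVF libraries in miR-429 (884 CPM).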

How the results depend on the processing

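Each member and comparison was refitted under other settings, which gave 390 values. Of these, 336 kept their direction and their side of the threshold, 48 turned sign and 6 lost the call. Of 1120 values with 1 library left out the numbers were 1004, 96 and 20. Interaction fits are among these values and have no direction, so for them only the side of the threshold was compared. No value that turned sign was past the threshold in either fit. The lost calls are all of miR-200c in males against females within nuclear transfer, and the cause was not tested. There 0 of 5 members were called with DESeq2 size factors in edgeR (log2 fold -1.80, adjusted p = 0.0597), with a filter of 10 CPM in 3 libraries (-2.19, 0.0607), with miR-2887 and miR-2904 left out (-2.10, 0.0533), with their share as a covariate, with the replicate block and without the 2 deepest libraries. Counts over all miRNAs in that comparison were 20 (7 higher in males, 13 lower) in the fit reported, 3 with DESeq2 size factors (2 higher, 1 lower), which moved the median log2 fold of all miRNAs from -0.03 to 0.36, 59 by DESeq2 (39 higher, 20 lower), 46 by limma voom, 23 with no filter, 0 with the 10 CPM filter, 3 with both entries left out, 0 with the covariate, 40 of 180 in nuclear transfer libraries alone and 0 without the 2 deepest. With 1 library left out, from 0 to 1 member was called, and from 0 to 36 miRNAs. For nuclear transfer against in vivo the count of 1 became 6 with no filter and 0 by DESeq2 or limma voom, for IVF against in vivo the count of 0 became 13 by DESeq2, 22 by limma voom and 6 with no filter, and for nuclear transfer against IVF the count of 3 became 5 with no filter and 0 by DESeq2 or limma voom; none was a member.

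Replicate numbers did not pair the libraries: over 53 pairs of the same number the median correlation of deviations was 0.007, 20 of them over 0.1, and 4 of 28 libraries correlated best with their own number. With the replicate block miR-200c had a log2 fold of -2.16 in nuclear transfer males against females (adjusted p = 0.0739 by edgeR), 15 miRNAs were called there, and 6 in nuclear transfer against in vivo. The block turned the sign in nuclear transfer against in vivo of miR-141 (0.10), miR-200c (0.16) and miR-429 (0.24), and of miR-200a in in vivo males against females (-0.19).

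Signs that turned, as log2 folds, were these. In nuclear transfer against in vivo, the covariate gave 0.29 for miR-141, 0.86 for miR-200c and 0.40 for miR-429. No filter gave 0.078 for miR-200c and 0.0051 for miR-429, limma voom 0.51 for miR-200c, the 10 CPM filter -0.064 for miR-200b and a model with no sex term -0.027 for miR-200b. Without the 2 deepest libraries miR-200c was at 0.50 and miR-429 at 0.25. In IVF against in vivo the covariate gave 0.46 for miR-200a, 0.49 for miR-200b, 0.50 for miR-200c and 0.36 for miR-429, and leaving out the 2 deepest 0.23, 0.30, 0.19 and 0.41. In nuclear transfer against IVF, miR-429 was at -0.034 with DESeq2 size factors, -0.033 by DESeq2 and -0.16 without the 2 deepest. In males against females, miR-429 was at 0.060 with DESeq2 size factors, 0.063 by DESeq2 and 0.0099 with no filter. Within IVF it was at 0.22, 0.21, 0.0042 by limma voom, 0.11 with both entries left out and 0.023 without the 2 deepest. Within in vivo, miR-200a was at -0.12 with DESeq2 size factors, -0.12 by DESeq2, -0.88 by limma voom, -0.19 with both entries left out, -0.64 with the covariate, -0.17 in in vivo libraries alone and -1.09 without the 2 deepest. Limma voom gave -0.23 for miR-200b, -0.50 for miR-200c and -0.14 for miR-429, the covariate -0.17 for miR-200c, no filter 0.029 for miR-141, and leaving out the 2 deepest -0.64, -0.77 and -0.73 for miR-200b, miR-200c and miR-429. Scaled to the counts outside miR-2887 and miR-2904, the summed family in IVF was 36549 CPM.

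With 1 library left out, these ranges crossed 0. In nuclear transfer against in vivo they were -0.054 to 0.73 for miR-200a, -0.46 to 0.73 for miR-200b, -0.49 to 0.72 for miR-200c and -0.52 to 0.44 for miR-429. In IVF against in vivo they were -0.53 to 0.24, -0.73 to 0.31, -0.95 to 0.20 and -0.48 to 0.42 in the same order. In nuclear transfer against IVF miR-429 ran from -0.19 to 0.33. In males against females miR-200b ran from -0.73 to 0.021 and miR-429 from -0.46 to 0.18. Within IVF, miR-200a ran from -0.64 to 0.081, miR-200b from -0.56 to 0.18 and miR-429 from -0.34 to 0.47. Within in vivo, miR-141 ran from -0.54 to 0.63, miR-200a from -1.09 to 0.41, miR-200b from -0.64 to 1.42, miR-200c from -0.77 to 1.505 and miR-429 from -0.73 to 1.05. Of the 5 miRNAs most like the family, 3 were shared when counts outside miR-2887 and miR-2904 were used.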
